A study of Mus musculus with 7 samples.

Results

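The genes described here are 9 genes of the T helper 2 (Th2) and T helper 17 (Th17) programs, Gata3, Maf, Il4, Il1rl1, Rora, Ahr, Il17a, Tmem176a and Tmem176b, out of 55364 genes in the count table. They were matched by symbol, and their counted 3′ regions were summed per gene. All 9 were found, and 7 had enough counts to be tested. The cells were CD45+CD3+CD4+ T cells sorted out of orthotopic lung tumours. The hosts were C57BL/6 mice older than 8 weeks. The 5 Control libraries came from I-AbF/F mice, whose MHC class II gene I-Ab is flanked by loxP sites, and the 2 Cre libraries from I-AbF/FCol1a2-cre mice. All mice of both groups were given tamoxifen. Cre was driven by the Col1a2 promoter, which is active in fibroblasts, so the sorted cells were not the target of the deletion. The question was whether loss of MHC class II on fibroblasts goes with other gene expression in tumour CD4 T cells. The libraries are biological replicates by the series design, but the labels do not tie each to a single animal, so p-values measure the spread between these libraries.

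Helper T cells take on distinct programs after they meet antigen. Interleukin-4 acting through Stat6 raises Gata3, the lineage factor of Th2 cells, which make interleukin-4, interleukin-5 and interleukin-13. Th17 cells form under interleukin-6 and TGF-beta, use Stat3 and the nuclear receptor RORalpha (Rora), and make interleukin-17. Most of these genes are not confined to 1 lineage: Gata3, Maf, Il1rl1, Rora and Ahr are also used by regulatory T cells in tissues, and Maf by follicular helper cells.

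The libraries held 1449739 to 1929899 counts each. The 12 marker genes of the sorted cells were detected in all 7 libraries. As CPM, the counts of a gene in each 1000000 counts of a library, their sum was 5133 to 6864 in Control against 6614 and 5483 in Cre. Control replicate 1 stood apart, with 14849 genes detected against 10151 to 10843 in the other 4 Control libraries and 9052 and 7896 in Cre. Of 9854 tested genes, 1.14% had no count in Control replicate 1, 12.3% to 16.1% in the other Control libraries, 25.01% in Cre replicate 1 and 33.6% in Cre replicate 2. The part of these differences in the results on low genes, those seen in Control replicate 1 alone included, was not tested.

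Il1rl1 encodes ST2, the receptor for the alarmin interleukin-33, and its counts show which of its isoforms was read. A membrane-bound form signals, and a soluble form, made by ending the transcript early, acts as a decoy. The coding sequences part after position 40446675 of chromosome 1 (mm10, plus strand, GENCODE M21). The membrane-bound transcript splices from there to an exon at 40450075, while the soluble transcript reads on into the intron. The windows are shown because the early end is what sets the 2 counted regions apart. Each gives 10 shared coding bases at 40446666 to 40446675 in lower case and the next 20 coding bases, particular to that transcript, in capitals, 5′ to 3′.
Membrane-bound form, capitals at 40450075 to 40450094: aaacaaccaaTTGATCACCGAAGCATCTAC
Soluble form, capitals at 40446676 to 40446695: aaacaaccaaGTAAGGAGTGTCCCTCACAC
The coding sequence runs to 1701 bases over 10 exons in the first and to 1011 bases over 7 exons in the second, stop codon left out. Each stop codon is followed by a separate counted region. The region of the soluble form lies at 40446705 to 40448397 and that of the membrane-bound form at 40462170 to 40465664, with 1444 and 3246 bases of 3′ UTR.

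Nearly all Il1rl1 counts came from the membrane-bound end. It held 548 of 551 counts, or 99.5% (exact 95% interval 98.4 to 99.9%), and the soluble end held 3 counts, all in Control replicate 1, the library with most genes detected. In Control alone 485 of 488 counts fell at the membrane-bound end, and in Cre 63 of 63 (exact 95% interval 94.3 to 100%). The counts are of reads without molecular identifiers, so such intervals cover counting error only.

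**Figure D1:**
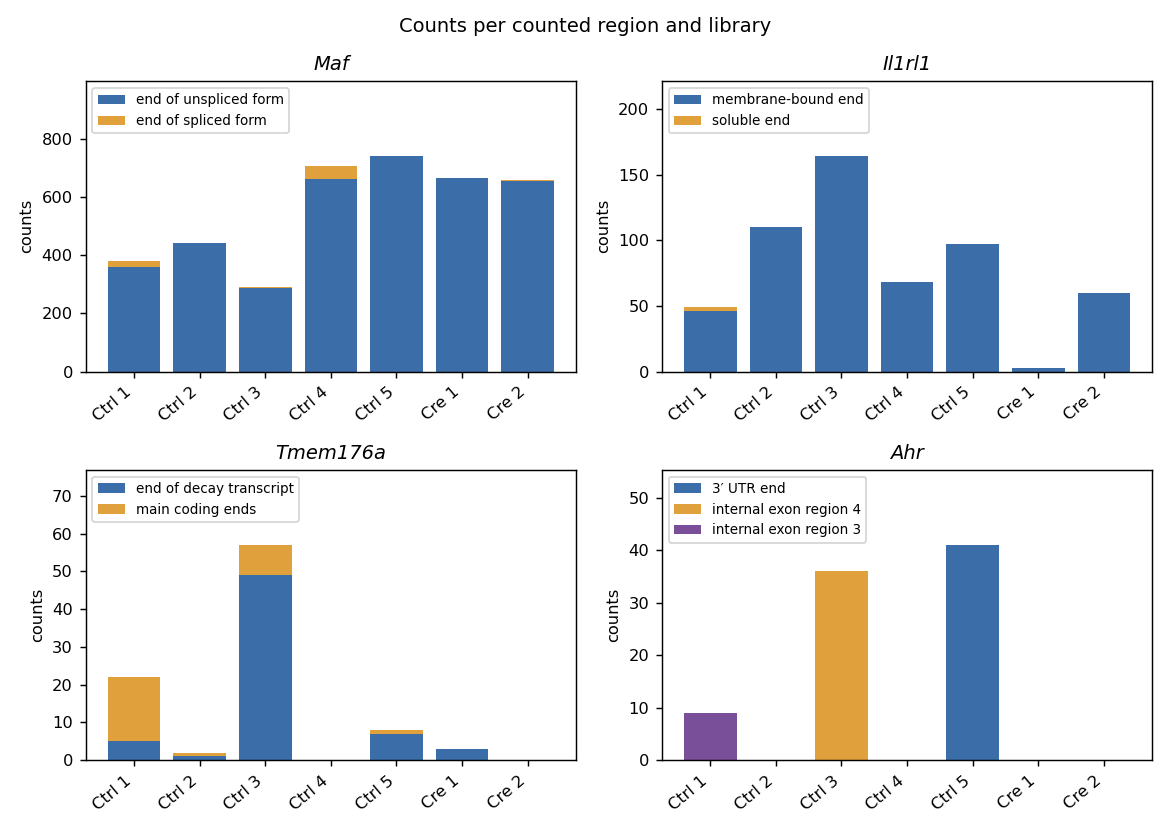
Counts per library (y axis) of Maf, Il1rl1, Tmem176a and Ahr, stacked by the 3′ region in which they fell (colours). Il1rl1 was counted almost wholly at its membrane-bound end, with 3 of 551 counts at the soluble end, while each of the 3 libraries with Ahr counts had them in a different region.

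Gata3, on chromosome 2 at 9857078 to 9890034 (minus strand), was counted at 1 end only. All 918 counts lay in the region at 9856829 to 9858369, which covers 1292 bases of 3′ UTR and 249 bases downstream. Control replicates 1 to 5 had 222, 202, 73, 100 and 136 counts, and Cre replicates 1 and 2 had 179 and 6, the order kept below. Scaled to depth, Control stood at 132, 136, 44.9, 58.0 and 83.6 CPM, and Cre at 92.8 and 4.14 CPM. Cre replicate 1 therefore sat inside the Control range and Cre replicate 2 below every Control library. The Control mean was 90.8 ± 41.7 CPM (SD, n = 5). The log2 fold change, Cre minus Control, was −0.89 ± 1.07 (SE; edgeR adjusted p = 0.809), with a 95% interval of −3.21 to 1.44. The direction rested on 1 library, since the value was 0.071 without Cre replicate 2 and −4.43 without Cre replicate 1 (edgeR adjusted p = 0.97 and 0.106). Among the 12 sorted-cell markers, Cre replicate 2 lay below every Control library for Cd3e, Cd3g, Cd2 and Lck. It lay above for Cd6 and inside the Control range for the others. Cd3e was at 2.07 CPM (34.4 to 235 in Control) and Cd3g at 29.0 CPM (42.4 to 305). Cd2 was at 33.1 CPM (96.3 to 399) and Lck at 566 CPM (1028 to 1991). Cd6 was at 304 CPM (97.3 to 191) and Cd4 at 391 CPM (203 to 454). Foxp3, the regulatory T cell factor, was at 4.14 CPM (33.2 to 148). The part of such values in the Gata3 result was not tested.

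Il1rl1 showed the opposite order within Cre. Control had 49, 110, 164, 68 and 97 counts against 3 and 60 for Cre, which is 29.1, 74.1, 100.9, 39.4 and 59.6 CPM against 1.55 and 41.4 CPM. Here Cre replicate 2 sat inside the Control range and Cre replicate 1 below it. The log2 fold change was −1.50 ± 1.32 (SE; edgeR adjusted p = 0.7), with a 95% interval of −4.38 to 1.38. It was −0.52 without Cre replicate 1 and −5.15 without Cre replicate 2 (edgeR adjusted p = 0.772 and 0.239), so its size rested on 1 library. Between the 2 Cre libraries Gata3 differed 22.4-fold and Il1rl1 26.6-fold, while the highest and lowest Control libraries differed 3.03-fold and 3.47-fold. A gap of this kind was not rare in these libraries. Of 5426 tested genes detected in both Cre libraries, 971 (17.9%) differed at least 10-fold between them.

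Maf, a bZIP factor that drives interleukin-4 in Th2 cells and interleukin-10 in several helper types, had the smallest spread of the tested members. On chromosome 8 at 115682942 to 115707794 (minus strand), it has 2 annotated coding transcripts with ends far apart. The end of the unspliced transcript, at 115701435 to 115705750, held 3813 of 3885 counts, or 98.1%. The distant end of the spliced transcript, at 115682693 to 115684761, held 72, of which 46 were in Control replicate 4. Summed, Maf stood at 225, 298, 179, 410 and 455 CPM in Control against 346 and 454 in Cre, so that both Cre libraries lay within the Control range. The log2 fold change was 0.36 ± 0.43 (SE; edgeR adjusted p = 0.804), with a 95% interval of −0.57 to 1.30. Its Control coefficient of variation was 37.5%, against a median of 75.7% over all tested genes.

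**Figure D2:**
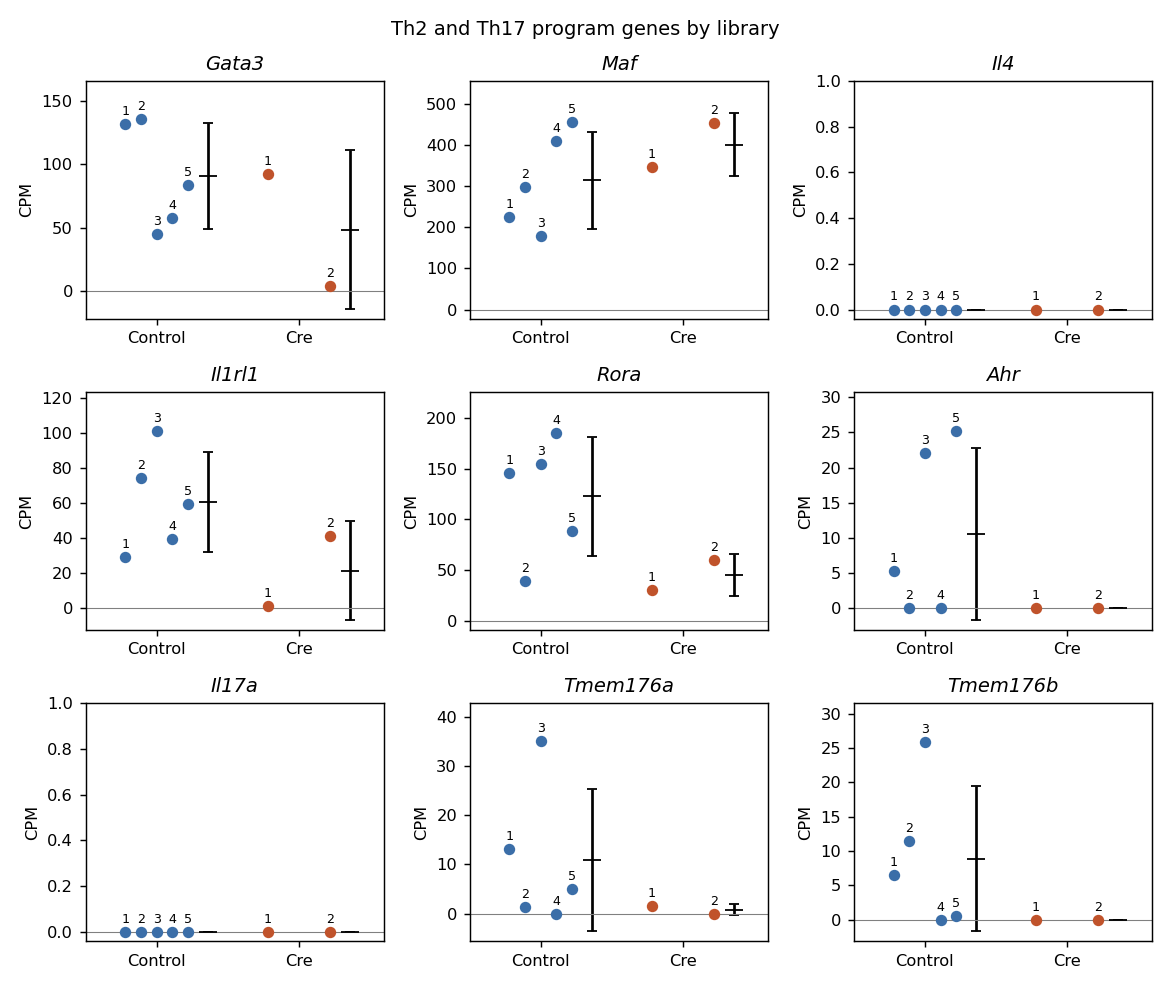
CPM (y axis, linear, own scale in each panel) of the 9 genes in each Control and Cre library, numbered by replicate, with the group mean and SD beside the points. In each panel at least 1 Cre library overlaps Control, and Il4 and Il17a are at 0 in all 7 libraries.

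Rora encodes the nuclear receptor RORalpha, which acts in Th17 cells and also serves type 2 lymphocytes and tissue regulatory T cells. On chromosome 9 at 68653786 to 69388246 (plus strand), all its 1165 counts fell in the last region at 69378962 to 69388495, which holds 9285 bases of 3′ UTR. The levels were 146, 39.1, 155, 185 and 88.5 CPM in Control against 30.6 and 60.0 in Cre. Control replicate 2 lay between the Cre libraries, and the other 4 Control libraries lay above both. The mean was 123 ± 58.4 CPM in Control (SD, n = 5) and 45.3 ± 20.8 CPM in Cre (n = 2). The log2 fold change of −1.45 ± 0.80 (SE) did not pass (edgeR adjusted p = 0.444), and its 95% interval ran from −3.20 to 0.30. It kept its direction without either Cre library (−1.03 and −1.96). Fewer cells that express a gene and less RNA per cell cannot be told apart in such bulk libraries.

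The aryl hydrocarbon receptor gene Ahr, whose product senses tryptophan metabolites and supports interleukin-22 in Th17 cells, was read in only some libraries. Control had 9, 0, 36, 0 and 41 counts, and both Cre libraries had 0. The 41 counts of Control replicate 5 fell in the 3′ UTR region on chromosome 12 at 35497725 to 35500688, the 36 of replicate 3 in a region at 35507420 to 35507529, and the 9 of replicate 1 in a region at 35506245 to 35506386. Those last 2 regions cover coding bases of the main transcript that are 3′ UTR in a transcript marked for nonsense-mediated decay. No 2 libraries thus shared an Ahr region. Over both Cre libraries a count of 0 allows up to 3 counts, or 0.888 CPM, for counting error only. The Control mean of 10.5 ± 12.2 CPM (SD, n = 5) was 11.9-fold above that limit, which leaves out the spread between libraries. Since 2 Control libraries were also at 0, the groups overlapped (edgeR adjusted p = 0.429).

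Tmem176a and Tmem176b are neighbouring genes that encode 4-pass membrane proteins of intracellular vesicles. They are known from Th17 cells, dendritic cells and macrophages. They lie head to head on chromosome 6, Tmem176b at 48833818 to 48841496 (minus strand) and Tmem176a at 48840919 to 48847071 (plus strand), so their counted ends face away from each other. Tmem176b had 11, 17, 42, 0 and 1 counts in Control against 0 in both Cre libraries. Tmem176a had 22, 2, 57, 0 and 8 counts in Control against 3 and 0 in Cre. Both genes were highest in Control replicate 3 and at 0 in Control replicate 4. For Tmem176b the Control mean of 8.88 ± 10.6 CPM (SD, n = 5) was 10.01-fold above the limit over both Cre libraries, for counting error only. The groups overlapped at 0 (edgeR adjusted p = 0.429). Tmem176a had a mean of 10.9 ± 14.4 CPM in Control against 0.777 ± 1.10 CPM in Cre, and its fitted difference was −3.62 ± 2.74 on the log2 scale (SE; edgeR adjusted p = 0.622). It was −2.70 without Cre replicate 2 and −7.13 without Cre replicate 1, where the remaining Cre library is at 0 and the value depends on the prior count, so its size rested on 3 counts in 1 library.

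The 2 libraries with most Tmem176a counts had them mostly at different ends. In Control replicate 1, 17 of 22 counts fell in the region at 48845146 to 48846118, where most of its coding transcripts end, and in Control replicate 3, 49 of 57 fell in the region at 48846348 to 48847320, where a transcript marked for nonsense-mediated decay ends. Over all libraries the second region held 65 of 92 counts, or 70.7% (exact 95% interval 60.2 to 79.7%).

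Il4 and Il17a, the defining cytokine genes of the Th2 and Th17 programs, had 0 counts in all 7 libraries. Over 11528322 counts in all this allows up to 0.26 CPM for each, for counting error only. Il4 has 2 counted regions on chromosome 11. That at 53612211 to 53612563 is short, with 104 bases of 3′ UTR and the rest past the transcript end. The other, at 53602733 to 53602981, lies wholly past the gene. The counted region of Il17a on chromosome 1 at 20733860 to 20734745 has 637 bases of 3′ UTR. Il4 and Il17a were left untested. With neither cytokine detected, the 9 genes are described here as a list and not as a sign of Th2 or Th17 cells.

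No member passed edgeR at an adjusted p under 0.05, where 0.0101% of 9854 tested genes passed as lower in Cre and 0% as higher. At an unadjusted edgeR p under 0.05 no member passed either (10.2% of tested genes were lower and 1.41% higher). DESeq2 also called 0 members (Ahr and Tmem176b had no adjusted p there), against 6.16% of tested genes called lower and 0.355% higher, and limma voom called 0, against 0% lower and 0.0304% higher. Of genes with a value in the authors' deposited table, 3.64% had a false discovery rate under 0.05 and were lower in Cre, and the lowest rate among the members was 0.242, for Tmem176b. Of the 7 tested members 6 had lower fitted values in Cre, with a median log2 fold change of −1.50, while over all tested genes 60.1% were lower, with a median of −0.39. Of the 7, 2 were at 0 in both Cre libraries, as were 13.7% of tested genes. A gene that is low in Cre enters the test through Control, so these figures only describe the members. For none of the 9 genes did both Cre libraries lie below every Control library, which was so for 10.9% of tested genes.

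**Figure D3:**
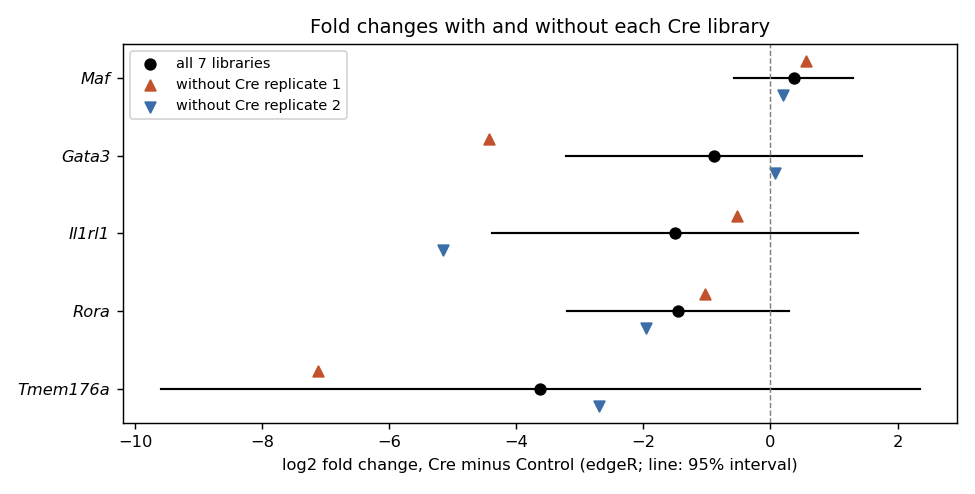
Log2 fold change, Cre minus Control, of the 5 members detected in Cre (x axis; Ahr and Tmem176b, at 0 there, are left out): circles and 95% interval lines are edgeR on all 7 libraries, and triangles leave out 1 Cre library. All 5 lines cross 0, and Gata3 and Il1rl1 move in opposite directions as the same library is left out.

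The list of other Th2 pathway genes held 31 genes, of which 18 were tested. The fitted log2 difference was above 0 in 8 and below 0 in 10 (median −0.36), where 60.1% of all tested genes were below 0. None passed edgeR over all genes. At an unadjusted edgeR p under 0.05 there were 2, both lower, where 10.2% of all tested genes were lower and 1.41% higher. Il4ra, the interleukin-4 receptor alpha chain, stood at 374 to 528 CPM in Control against 365 and 378 in Cre, with a fitted difference of −0.31 ± 0.36 on the log2 scale (SE; edgeR adjusted p = 0.795). Downstream of it, Stat6 had 127, 233, 201, 59 and 314 counts in Control against 32 and 9 in Cre. Both Cre libraries lay below every Control library, as for 10.9% of all tested genes. The Stat6 log2 fold change was −3.30 ± 1.01 (SE, edgeR adjusted p = 0.367). DESeq2 called Stat6 lower (adjusted p = 0.00666), as it did 6.16% of all tested genes. Irf4, which pairs with Batf in both programs, had 14, 0, 11, 63 and 0 counts in Control against 9 and 137 in Cre. Batf had 98, 105, 76, 121 and 19 counts in Control against 92 and 177 in Cre. Neither passed (edgeR adjusted p = 0.7 and 0.842).

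Th2 effector genes were sparse. Il13 had 9 counts in Control replicate 1, 46 in Control replicate 3 and 0 in the other libraries. Il5, and Il33, the ligand of ST2, had 0 counts in all 7. In the Th2 cytokine locus, Rad50 had 30 and 17 counts in Control replicates 1 and 5 and 35 in Cre replicate 1, with 0 elsewhere, and Kif3a had 4 to 35 counts in Control against 13 and 14 in Cre. The chemokine receptor Ccr4 had 13, 27, 35, 1 and 11 counts in Control against 0 in both Cre libraries. It was the other list member with both Cre libraries below every Control library (edgeR adjusted p = 0.422), although its lowest Control library had 1 count. Ccr8, a receptor of tumour regulatory and Th2 cells, had 15 and 4 counts in Control replicates 1 and 2 and 0 elsewhere. Il17rb, a receptor chain for interleukin-25, had 1, 16 and 38 counts in Control replicates 1, 2 and 4 and 0 elsewhere (edgeR adjusted p = 0.437). Junb, an AP-1 factor of the activated Th2 cell, had 647 to 2126 CPM in Control against 480 and 999 in Cre (edgeR adjusted p = 0.608).

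**Figure D4:**
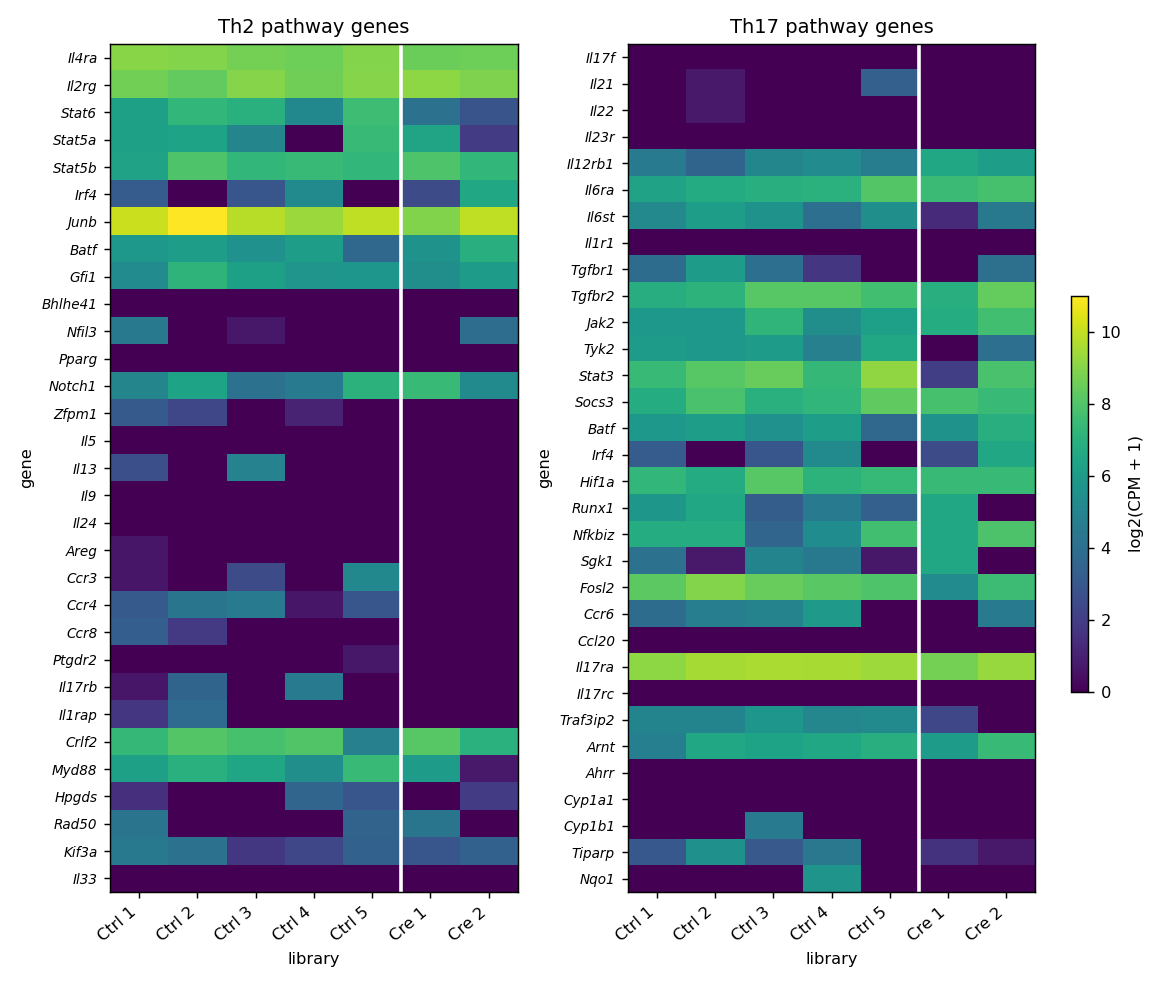
Log2(CPM + 1) (colour) of 31 Th2 and 32 Th17 pathway genes (rows) in the 7 libraries (columns), Control left of the white line. Il4ra, Il17ra and Junb were read in every library, while Il5, Il33, Il17f, Il23r and Il1r1 had 0 counts in all 7.

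The list of other Th17 pathway genes held 32 genes, of which 21 were tested. The fitted log2 difference was above 0 in 12 and below 0 in 9 (median 0.11), where 60.1% of all tested genes were below 0. None passed edgeR over all genes. At an unadjusted edgeR p under 0.05 there was 1, lower, where 10.2% of all tested genes were lower and 1.41% higher. Il17f and Il23r had 0 counts in all libraries, Il22 had 1 in Control replicate 2, and Il21 had 1 and 15 in Control replicates 2 and 5. The list member of lowest p was Fosl2, an AP-1 factor that restrains parts of the Th17 program. It stood at 295, 498, 344, 289 and 249 CPM in Control against 38.9 and 183 in Cre (log2 fold change −1.60 ± 0.60 SE, edgeR adjusted p = 0.422). Both Cre libraries lay below every Control library, as for 10.9% of all tested genes. Over 16 alternatives the Fosl2 value ran from −3.05 to −0.85. Traf3ip2, which encodes the interleukin-17 receptor adaptor Act1, had 51, 45, 87, 57 and 60 counts in Control against 8 and 0 in Cre. DESeq2 called it lower (adjusted p = 0.0388), as it did 6.16% of all tested genes, and edgeR did not (adjusted p = 0.429).

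Kinases and receptors of the interleukin-23 and interleukin-6 axis were read too, and none of those named passed the test. Tyk2, a Janus kinase, had 110, 84, 105, 46 and 151 counts in Control against 0 and 22 in Cre, both below Control (edgeR adjusted p = 0.437). Il12rb1, the chain that the interleukin-12 and interleukin-23 receptors share, had 36, 16, 53, 67 and 38 counts in Control against 184 and 103 in Cre, both above Control (log2 fold change 1.72 ± 1.03 SE; edgeR adjusted p = 0.475). Of all tested genes 4.05% had both Cre libraries above every Control library, and 10.9% had both below. Stat3 had 287, 413, 564, 279 and 935 counts in Control against 6 and 334 in Cre, with Cre replicate 1 below Control and replicate 2 inside its range (edgeR adjusted p = 0.615). The chemokine receptor Ccr6 had 23, 37, 47, 104 and 0 counts in Control against 0 and 32 in Cre (edgeR adjusted p = 0.894).

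Genes known to respond to the Ahr protein were low as well. Tiparp had 12, 67, 12, 35 and 0 counts in Control against 4 and 1 in Cre (edgeR adjusted p = 0.59), and Cyp1a1 had 0 in all libraries. Cyp1b1 and Nqo1, named after their values were seen, had 36 counts in Control replicate 3 alone and 88 in Control replicate 4 alone. Control replicate 3 had 36 Ahr counts and Control replicate 4 had 0. Arnt, the dimer partner of Ahr, was read in every library, with 44 to 200 counts in Control against 127 and 254 in Cre (edgeR adjusted p = 0.84).

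Other cells that use these genes were read beside them. All 10 regulatory T cell markers were tested and 8 were detected in every library. Their sum was 1423 to 2845 CPM in Control against 2180 and 2080 in Cre. In Cre most of the sum was Tnfrsf18, the receptor GITR, with 1447 and 1304 CPM, against 496 to 1665 CPM in Control. The fitted log2 difference was below 0 in 7 of the 10 markers (median −0.62), where 60.1% of all tested genes were below 0 (median −0.39). None of the markers passed edgeR over all genes. Il2ra, the interleukin-2 receptor alpha chain, stood at 40.5 to 141 CPM in Control and at 27.5 and 2.76 in Cre. Tnfrsf4 and Il10 also lay below every Control library in Cre, as did 10.9% of all tested genes. Nrp1 and Il10 were at 0 in both Cre libraries, as were 13.7% of tested genes. The part of these markers in the Gata3, Il1rl1 and Rora values was not tested. The 8 follicular helper markers added up to 974 to 1649 CPM in Control against 1043 and 633 in Cre. Of the 6 tested, 3 had a fitted log2 difference above 0 and 3 below. Their defining factor Bcl6 had 6 and 1 counts in Cre against 4 to 130 in Control. Icos stood at 528 to 960 CPM in Control against 474 and 350 in Cre (edgeR adjusted p = 0.429). Of these markers only Icos had both Cre libraries below every Control library, as for 10.9% of all tested genes. The 8 Th1 markers added up to 428 to 1168 CPM in Control against 696 and 504 in Cre. The Th1 lineage factor Tbx21 had 133 to 448 counts in Control against 422 and 66 in Cre, and Ifng had 0 to 43 against 217 and 0. Of 9 gamma-delta T cell markers 5 were at 0 in all libraries, Trdc had 14 counts in Control replicate 1 alone (the library with most genes detected), and the sum was 0 to 47.4 CPM in Control against 83.9 and 0 in Cre, where 161 counts of Trgc2 made up nearly all of the first.

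Markers of cells outside the sort were read in the same way. Of 9 mast cell and basophil markers 7 were at 0 in all libraries, with sums of 0 to 7.12 CPM in Control against 0 in Cre. Of 7 markers of group 2 innate lymphoid cells, which lack the CD3 of the sort, 2 were at 0 in all libraries, and the sum was 38.4 to 266 CPM in Control against 70.0 and 208 in Cre. Klrg1, which effector T cells also express, gave 15.5 to 264 CPM of it in Control and 68.9 and 97.3 CPM in Cre. Il9r gave 0 to 73.2 CPM of the sum in Control and 0 and 107 CPM in Cre. For Tmem176a and Tmem176b, the 9 dendritic cell markers added up to 154 to 390 CPM in Control against 115 and 455 in Cre, mostly Ccr7, which T cells also express. Flt3, Clec9a and Cd209a were at 0 in all libraries, and Itgax had 3 and 2 counts in Control replicates 1 and 3 and 0 elsewhere. The 12 macrophage and monocyte markers added up to 29.0 to 171 CPM in Control against 171 and 79.3 in Cre, mostly Ly6c2. Adgre1 and C1qc were at 0 in all, and Lyz2 had 8 to 54 counts in Control against 0 in both Cre libraries. The part of Lyz2-expressing cells in the Tmem176a and Tmem176b values was not tested. The 10 fibroblast markers added up to 220 to 828 CPM in Control against 346 and 60.7 in Cre. Of 7 tested, 6 had a fitted log2 difference below 0 and 1 above, where 60.1% of all tested genes were below. Col1a2 had 40 to 336 counts in Control against 7 and 2 in Cre, and Dcn had 7 to 257 against 364 and 41. The B cell and neutrophil lists reached at most 1.19 and 0.69 CPM in a library, the NK cell list 16.8 CPM, and the epithelial and tumour cell list 25.4 CPM.

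By likeness of pattern, the 3 genes nearest to Gata3 among 5014 tested genes with a mean of at least 30 CPM were Gm50367, Fam173a and Ing2, with Pearson's r of 0.98 for each over the 7 libraries and Spearman's rho of 0.89, 0.89 and 1. The first 2 share counted regions on the same strand, so they are not separate genes in these counts. Those nearest to Tmem176b among 5015 genes were Tnfrsf4, which encodes the costimulatory receptor OX40, Hnrnpd and Setd4, with r of 0.99, 0.98 and 0.98 and rho of 0.96, 0.96 and 0.97. Tnfrsf4 stood at 215, 252, 321, 149 and 171 CPM in Control against 137 and 133 in Cre, in the same order as Tmem176b apart from its ties at 0. These are the highest of all genes compared over 7 libraries that share depth and groups, so they are a description with no test. Among pairs of members over the same 7 libraries, r ran from −0.92 (rho = −0.78) for Maf with Tmem176b to 0.83 (rho = 0.80) for Ahr with Tmem176a. The neighbours Tmem176a and Tmem176b had r = 0.76 and rho = 0.71, and Gata3 and Il1rl1 had r = −0.15 and rho = −0.36.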

How the data were processed

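The deposited table gives, for 7 libraries of 3′ UTR RNA-seq, whole-number read counts without normalization, per the file headers and the labels' protocols. Its 116000 regions belong to 55364 genes. Tools and build listed, with no roles, are FastQC 0.11.8, HISAT2 2.1.0, DESeq2 and mm10, per the submitters' processing notes. How regions were counted, and whether by strand, is not given in the sources used here. A second deposited table of the authors gives p-values, a fold as a ratio, a log2 fold change and percent GC, per the file headers. Regions were summed per gene. GENCODE M21 (mm10) had 55104 of the genes, 99.4% at the same position, and gave exons, UTRs and the Il1rl1 sequence. No region of another gene overlapped the 38 regions of the members, on either strand. No 2 libraries agreed within sampling noise (chi-square per degree of freedom at least 30.2).

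The main test was edgeR 4.0.16 (R 4.3.3), quasi-likelihood F test with TMM, robust dispersion and filterByExpr (minimum count 10, minimum total 15), with group as the only term and all 7 libraries. P-values are two-sided, adjusted by Benjamini-Hochberg over 9854 genes with a threshold of 0.05. A single value compared by exact permutation cannot go below 0.0952 with 2 libraries against 5, so none is printed. SEs come from the F statistic. CPM use library totals. Scripts were tested on simulated data. Alternatives were other scalings and filters, leave-one-out fits, a block for replicate number, the top region alone, DESeq2 1.42.0 and limma 3.58.1 voom with and without library weights.

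Named genes are the 9 members, the 4 tested genes of lowest p in each pathway list, a fixed set of further genes, and the 3 genes of highest Pearson's r (log2 CPM, prior count 2, mean of at least 30 CPM) for Gata3 and Tmem176b. Others are marker list members. Members and lists were chosen with earlier results of these data known. 1 gene of the Th17 list is not reported here. Of 190 list entries 4 stood under another symbol.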

Additional observations from a re-analysis of the deposited data

Results flagged for a closer look

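In the 5 Control libraries, 62 values were checked for a single library far from the other 4, by Dixon's criterion (0.71 at 5 libraries). The criterion assumes normally distributed values, and a gene with counts in 1 Control library alone always meets it. How often it is met by chance here is therefore not known, and 9 checks met it. Trdc at 8.30 CPM stood above 0 in Control replicate 1 alone, as did Il22 at 0.674 CPM in replicate 2, Cyp1b1 at 22.1 CPM in replicate 3 and Nqo1 at 51.03 CPM in replicate 4. Il13 reached 28.3 CPM in Control replicate 3 (next highest 5.34), Il21 9.22 CPM in replicate 5 (next 0.674) and Irf4 36.5 CPM in replicate 4 (next 8.30). Traf3ip2 reached 53.5 CPM in Control replicate 3 (next 36.9), and the 2 CD8 T cell markers summed to 9.49 CPM in Control replicate 1 (next 1.23). None of the members with counts met the criterion, and Il4 and Il17a, at 0 in all libraries, could not be checked. Control replicate 1, which holds 2 of these values, had 14849 genes detected, against 10151 to 10843 in the other Control libraries.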

How the results depend on the processing

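edgeR, voom and DESeq2 on all libraries, with every scaling, filter and left-out library tried in edgeR, called 0 members. Maf stayed above 0 and Il1rl1, Rora, Ahr, Tmem176a and Tmem176b below 0 wherever they could be fitted; Ahr, Tmem176a and Tmem176b did not enter every filter. For Gata3, values with single libraries left out ran from −4.43 to 0.071, turning above 0 without Cre replicate 2 (0.16 by DESeq2, a repeat added after seeing the data). In the added DESeq2 repeats Gata3 was called without Cre replicate 1 (−4.35, adjusted p = 0.00436) and Il1rl1 without Cre replicate 2 (−5.16, adjusted p = 0.00954); the lone Cre library is assumed to vary like Control. Over all genes edgeR called 1 lower and 0 higher, and the counts were 28 and 15 with no filter, 607 and 35 with DESeq2, 0 and 3 with voom, 0 and 1 with library weights. With single libraries left out they ran from 1 to 202 lower and 0 to 17 higher, both highest without Cre replicate 1. Of pathway genes DESeq2 called 1 in each list, Stat6 and Traf3ip2, as lower; single libraries left out gave 0 to 1 Th2 genes (Myd88, without Cre replicate 1) and 0 Th17 genes. The replicate block gave 5 genes lower in all and 0 members. Deviations of same-numbered libraries from their group means had r = 0.003 and 0.002 for numbers 1 and 2. With 2 Cre libraries their deviations mirror each other, so these values are not separate and cannot show whether the numbers pair. The labels give no pairs, so the numbers were not read as pairs. DESeq2 size factors shifted the median log2 fold change of all genes by 0.10 and upper-quartile factors by −0.10. For counting error only, a count of 0 allows 1.55 to 2.07 CPM in a single library, which limits what can be read from low genes.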

Other observations

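The interleukin-17 receptor gene Il17ra stood at 566 to 788 CPM in Control against 417 and 623 in Cre, with Cre replicate 2 inside the Control range (edgeR adjusted p = 0.632). Crlf2, a receptor chain for the alarmin TSLP, had 44 to 449 counts in Control against 545 and 190 in Cre (edgeR adjusted p = 0.964). Myd88, the adaptor used by ST2, had 73 to 277 counts in Control against 128 and 1 in Cre (edgeR adjusted p = 0.653), so that only Cre replicate 2 lay below Control. These 3 genes were chosen after their values were seen.

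Counts held by a single library, as for Cyp1b1 and Nqo1, were found for other genes too. Over all genes, 230 had at least 30 counts in 1 library and 0 in the other 6, from 9 genes in Control replicate 1 to 62 in Control replicate 5, with 29 and 19 in the Cre libraries.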
